A study of Mus musculus with 4 samples.

Results

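A set of 41 endothelial and angiogenesis genes was followed across 4 messenger RNA libraries of mouse heart ventricles. The genes were picked by symbol, and all 41 were found among the 46603 genes of the deposited table. They comprise 11 endothelial surface and junction genes, 5 endothelial transcription factors, 4 ligands of the vascular endothelial growth factor (VEGF) family, 5 VEGF receptors and neuropilins, 4 angiopoietin and Tie genes, apelin and its receptor, 6 Notch and ephrin genes, and 4 capillary and arterial genes that include the endothelial nitric oxide synthase.

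The ventricles came from C57Bl6/J mice aged 8 to 12 weeks that were either null for P2Y6 (KO), a G-protein-coupled receptor for the nucleotide UDP, or wild type (WT). Isoproterenol, an agonist of beta-adrenergic receptors used to provoke cardiac hypertrophy, was given intraperitoneally at 50 mg/kg/day for 7 days, and saline was given to the other mice on the same schedule. The groups were KO with isoproterenol, WT with isoproterenol, KO with saline and WT with saline, each with 1 library. The labels do not say how many hearts went into a library, nor which bases the null allele lacks. Differences between libraries therefore have no replicate check, and the intervals given here cover counting error only.

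The heart muscle is supplied by a dense bed of capillaries whose endothelial cells depend on VEGF-A, made largely by neighbouring muscle and mural cells, acting through the receptor VEGFR2. Angiopoietins and Tie receptors settle vessel stability, while Notch and ephrin signals separate arterial from venous cells and tip cells from stalk cells. Apelin is a peptide ligand of sprouting endothelium, and its receptor, a G-protein-coupled receptor, is found on endothelium of veins and capillaries. Capillary endothelium also takes up fatty acids for the muscle, and a diaphragm protein of its fenestrae and caveolae, Plvap, marks a more permeable endothelium.

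The libraries held 18771198 reads in the KO isoproterenol group, 20721472 in the WT isoproterenol group, 22965087 in the KO saline group and 25637369 in the WT saline group. Levels are given as CPM, a gene's share of its library expressed per 1000000 reads. Folds compare the reads of 1 library with those of another once TMM, a scaling that trims extreme genes, has put both on one scale, and each carries a 95% counting interval. P2ry6, the gene of the missing receptor, stood at 0.533 CPM in KO isoproterenol and 5.89 CPM in WT isoproterenol ventricles, and at 0.566 CPM in KO saline and 5.11 CPM in WT saline ventricles. The sum over 6 endothelial markers (Pecam1, Cdh5, Kdr, Tie1, Erg and Esam) was 864 CPM in KO isoproterenol, 837 CPM in WT isoproterenol, 879 CPM in KO saline and 919 CPM in WT saline ventricles. None of them was at 0. All 6 belong to the set, so their reads are no independent check of its label. Sums of fibroblast, macrophage and cardiomyocyte markers differed more, with no listed marker at 0 in any library. The sum over 12 mural cell markers varied little, between 1688 CPM in WT isoproterenol and 1859 CPM in WT saline ventricles. Single mural markers varied more, in both directions. Between KO isoproterenol and KO saline ventricles, Cnn1 stood at 20.9 against 5.49 CPM, Tagln at 89.6 against 47.5 CPM and Abcc9 at 205 against 410 CPM. The sum over 11 fibroblast markers was 12099 CPM in KO isoproterenol, 4786 CPM in WT isoproterenol, 2841 CPM in KO saline and 3398 CPM in WT saline ventricles. Over 10 macrophage markers the sum was 1071 CPM in KO isoproterenol, 493 CPM in WT isoproterenol, 471 CPM in KO saline and 521 CPM in WT saline ventricles. Over 10 cardiomyocyte markers it was 62834 CPM in KO isoproterenol, 71982 CPM in WT isoproterenol, 75279 CPM in KO saline and 76163 CPM in WT saline ventricles. Single markers did not all follow the sum of their list. Between KO isoproterenol and KO saline ventricles, the cardiomyocyte marker Actc1 stood at 11725 against 9345 CPM, and the fibroblast marker Gsn at 1020 against 1436 CPM. Fewer cells of a type and less RNA per cell cannot be told apart in whole ventricle, and the part of these shifts in the results below was not tested.

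All 41 genes had reads in every library and a mean of at least 10 reads, so none was lost to the filter on low counts that left 14301 genes. Divided by exon length, the mean level over the 4 libraries ran between 111 CPM per kb for Vegfb and 0.836 CPM per kb for Esm1. Behind Vegfb, a ligand of VEGFR1 that is abundant in heart muscle, came Vegfa at 62.1, Cdh5 at 62.0, Eng at 48.9 and Pecam1 at 28.8 CPM per kb. After TMM scaling, 34 of the 41 genes varied by less than 1.5-fold between their highest and lowest library, and 19 by less than 1.25-fold. The 7 that varied more were Apln, Car4, Plvap, Sox7, Rgcc, Cldn5 and Esm1. Among the flattest were Egfl7, which encodes a protein that endothelial cells secrete, with a ratio of 1.03 between its highest and lowest library, and Sox18, a transcription factor of vessel and lymphatic development, at 1.04. Most of the set thus varied by less than 1.5-fold between these libraries, and the results turn on a handful of genes. The same counts were not taken over all 14301 genes, so the set is not shown to be flatter than genes at large.

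**Figure D1:**
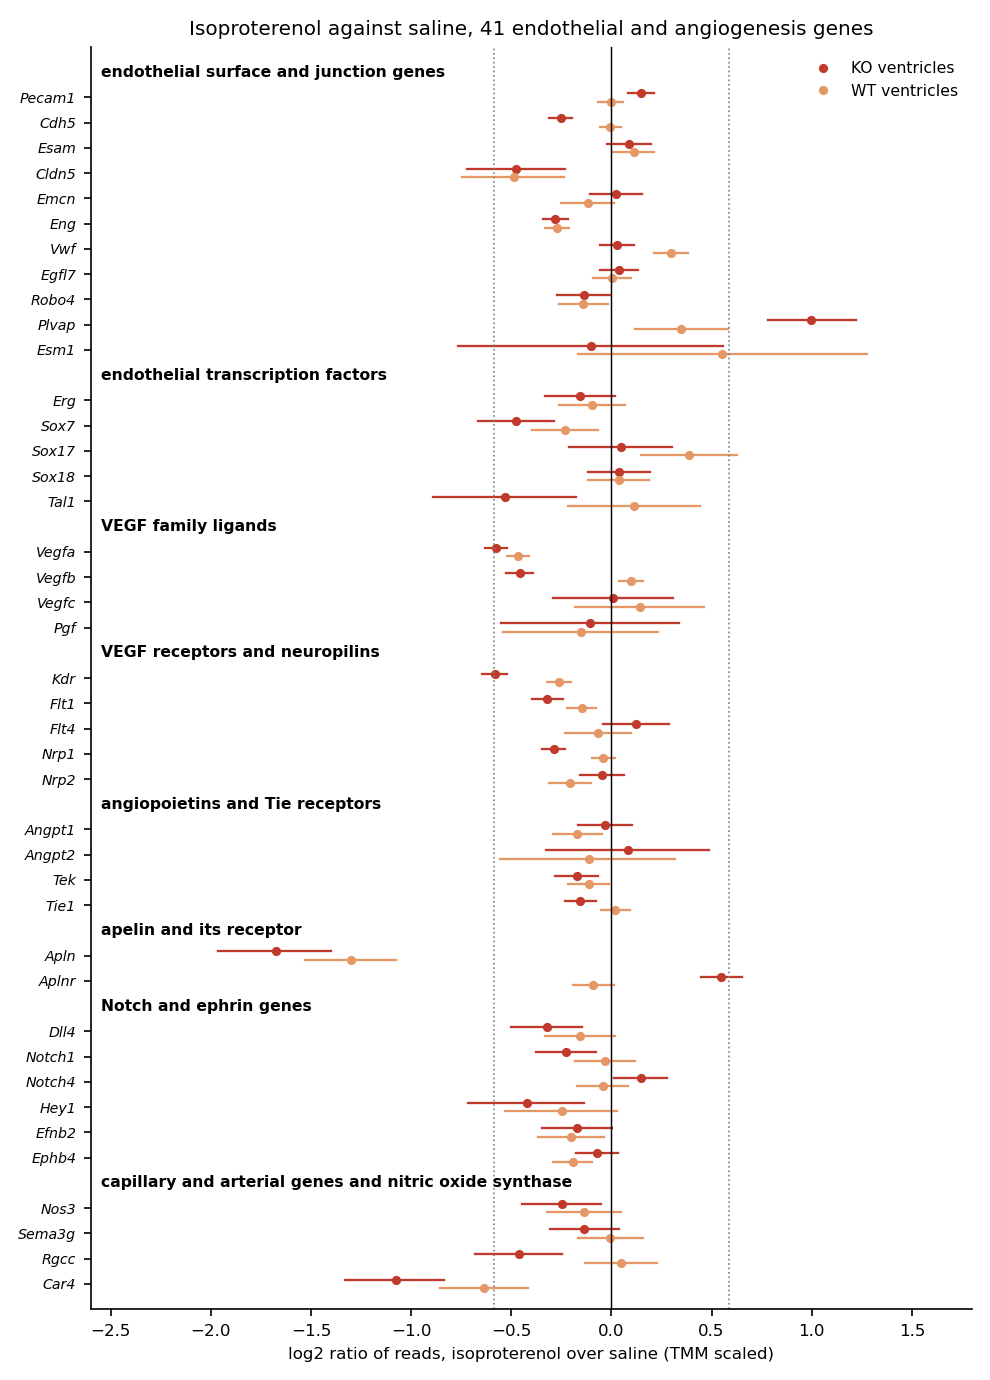
Log2 ratio of reads between isoproterenol and saline (x axis, TMM scaled) for each of the 41 genes, grouped by role, in KO ventricles (dark red) and WT ventricles (orange). Points are ratios of 1 library over 1 library, bars are 95% counting intervals and dotted lines mark 1.5-fold. Apln lies far to the left in both genotypes, Car4 is left of no change in both, and Plvap is on the right, farther in KO ventricles.

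Apelin showed the largest ratio of any of the 41 genes in either genotype. Apln (ENSMUSG00000037010, X, 48025146 to 48034853, minus strand) stood at 7.19 CPM in KO isoproterenol and 10.3 CPM in WT isoproterenol ventricles, against 20.3 CPM in KO saline and 26.8 CPM in WT saline ventricles. These levels rest on 135 and 213 reads in the KO and WT isoproterenol libraries and on 466 and 686 reads in the KO and WT saline libraries. Both isoproterenol libraries were thus below both saline libraries, and within each treatment the KO library was below the WT library. Apln was 3.19-fold lower with isoproterenol than with saline in KO ventricles (interval 2.64 to 3.91) and 2.46-fold lower in WT ventricles (2.11 to 2.89). In total, 1 of the 41 genes was lower beyond 1.5-fold in WT ventricles, where 0.797% of all 14301 genes were, and 2 of 41 in KO ventricles, where 4.22% of all genes were.

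Its receptor did not follow the ligand. Aplnr (2, 85136225 to 85139923, plus strand) stood at 95.4 CPM in KO isoproterenol and 65.3 CPM in WT isoproterenol ventricles, against 57.4 CPM in KO saline and 73.6 CPM in WT saline ventricles. Only the KO isoproterenol library was above WT saline. The gene was 1.46-fold higher with isoproterenol in KO ventricles (1.36 to 1.57) and 1.06-fold lower in WT ventricles, with an interval that reaches no change (0.993 to 1.14). Because both genes are read in the same library, the ratio of their reads does not depend on scaling. There were 0.0754 reads of Apln per read of Aplnr in KO isoproterenol (0.0628 to 0.0899) and 0.157 in WT isoproterenol ventricles (0.136 to 0.182), against 0.353 in KO saline (0.317 to 0.393) and 0.364 in WT saline ventricles (0.333 to 0.397). The saline intervals overlap one another, whereas each isoproterenol interval stands clear of the other 3.

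**Figure D2:**
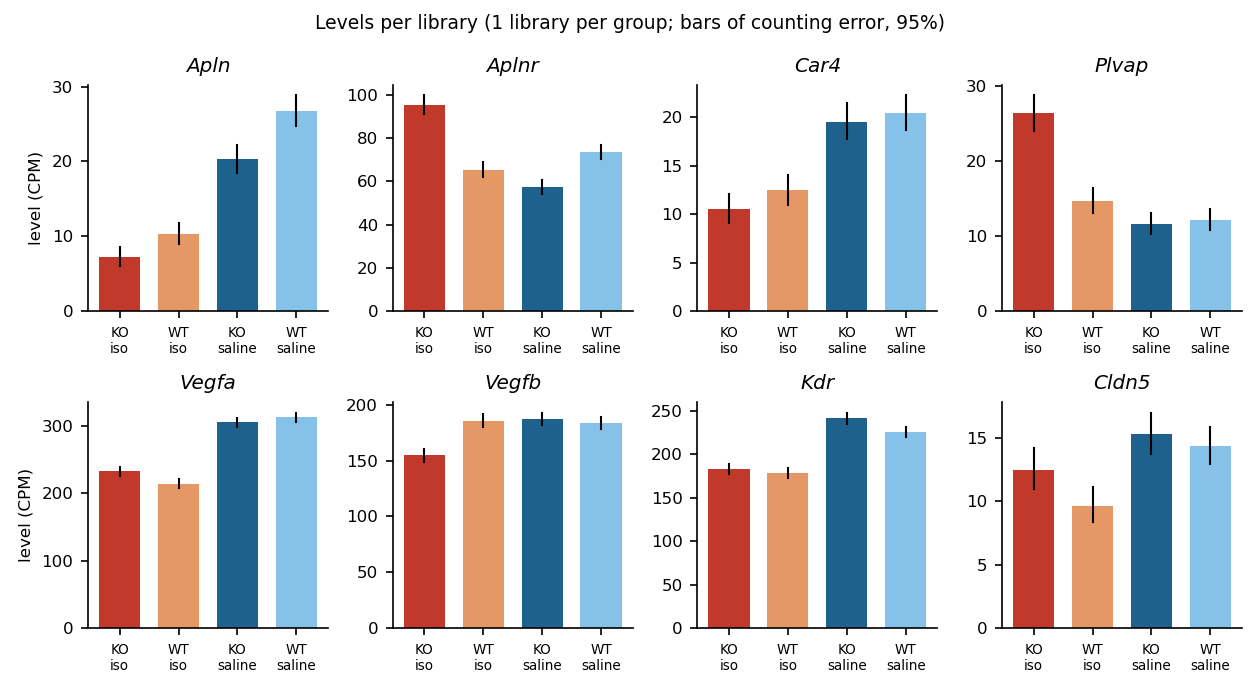
Level in CPM (y axis, from 0) of 8 of the genes in the KO isoproterenol, WT isoproterenol, KO saline and WT saline libraries (x axis). Bars are single libraries and black lines are 95% counting intervals. Apln, Car4, Vegfa, Kdr and Cldn5 are lower in both isoproterenol libraries than in both saline libraries, while Plvap is highest in KO isoproterenol ventricles at 26.4 CPM.

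Of the VEGF family ligands, the main one was lower after isoproterenol in both genotypes. Vegfa (17, 46016993 to 46032369, minus strand) stood at 232 CPM in KO isoproterenol and 214 CPM in WT isoproterenol ventricles, against 305 CPM in KO saline and 313 CPM in WT saline ventricles. Isoproterenol libraries did not overlap saline libraries. The gene was 1.49-fold lower with isoproterenol in KO ventricles (1.43 to 1.55) and 1.38-fold lower in WT ventricles (1.33 to 1.43), both short of the 1.5-fold rule. Vegfb, whose product binds VEGFR1 and neuropilin-1, stood at 155 CPM in KO isoproterenol and 185 CPM in WT isoproterenol ventricles, against 187 CPM in KO saline and 183 CPM in WT saline ventricles. Here the KO isoproterenol library alone stood apart, 1.37-fold below KO saline (1.31 to 1.44) and 1.39-fold below WT isoproterenol (1.32 to 1.46). Vegfc, a ligand of lymphatic vessels, lay between 6.98 and 9.64 CPM, and Pgf, placental growth factor, between 4.09 and 5.5 CPM. Their intervals between isoproterenol and saline spanned no change in both genotypes.

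The receptors were lower or near no change. Kdr (5, 75932827 to 75978458, minus strand), which encodes VEGFR2, stood at 183 CPM in KO isoproterenol and 178 CPM in WT isoproterenol ventricles, against 242 CPM in KO saline and 226 CPM in WT saline ventricles. With isoproterenol it was 1.5-fold lower in KO ventricles (1.44 to 1.56) and 1.2-fold lower in WT ventricles (1.15 to 1.25). Flt1, the VEGFR1 gene whose product binds and holds VEGF-A, was 1.25-fold lower in KO ventricles (1.18 to 1.32) and 1.11-fold lower in WT ventricles (1.05 to 1.17). Nrp1, a coreceptor of VEGFR2, was 1.22-fold lower in KO ventricles (1.17 to 1.27), while its WT ratio was within counting error of no change. Nrp2, a coreceptor of lymphatic and venous cells, was 1.15-fold lower in WT ventricles (1.07 to 1.24) with a KO interval that spanned no change, and Flt4, the VEGFR3 gene, spanned no change in both. The ratio of Vegfa to Kdr reads varied less than either gene. Reads of Vegfa per read of Kdr were 1.27 in KO isoproterenol (1.214 to 1.329) and 1.20 in WT isoproterenol ventricles (1.152 to 1.258). They were 1.26 in KO saline (1.219 to 1.308) and 1.39 in WT saline ventricles (1.339 to 1.433). Reads of Vegfa per read of Flt1 were 1.89 in KO isoproterenol (1.797 to 1.989) and 1.741 in WT isoproterenol ventricles (1.658 to 1.829). In saline ventricles they were higher, 2.256 in KO (2.162 to 2.354) and 2.169 in WT (2.086 to 2.256), without overlap between treatments.

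The capillary gene of the set was also lower in both genotypes. Car4 (ENSMUSG00000000805, 11, 84957786 to 84966044, plus strand) encodes a carbonic anhydrase anchored to the capillary surface. It stood at 10.5 CPM in KO isoproterenol and 12.5 CPM in WT isoproterenol ventricles, against 19.6 CPM in KO saline and 20.4 CPM in WT saline ventricles, without overlap between treatments. It was 2.11-fold lower with isoproterenol in KO ventricles (1.78 to 2.51), beyond the 1.5-fold rule, and 1.55-fold lower in WT ventricles (1.34 to 1.81), where the interval crosses it. Rgcc, a cell cycle regulator of capillary endothelium, stood at 15.7 CPM in KO isoproterenol and 21.8 CPM in WT isoproterenol ventricles, against 19.1 CPM in KO saline and 22.2 CPM in WT saline ventricles. The KO isoproterenol library was the low one, 1.38-fold below KO saline (1.19 to 1.6). Nos3, the endothelial nitric oxide synthase, lay between 19.6 and 22.8 CPM in all libraries, and Sema3g, an arterial semaphorin, between 26.3 and 27.9 CPM.

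Plvap was the 1 gene of the 41 that was higher beyond 1.5-fold in any comparison between libraries, in KO ventricles, where 7.09% of all genes were. Plvap (8, 71497765 to 71511752, minus strand) stood at 26.4 CPM in KO isoproterenol and 14.7 CPM in WT isoproterenol ventricles, against 11.6 CPM in KO saline and 12.2 CPM in WT saline ventricles. With isoproterenol it was 2.0-fold higher in KO ventricles (1.72 to 2.33) and 1.27-fold higher in WT ventricles (1.08 to 1.5), so both isoproterenol libraries were above both saline libraries. In WT ventricles 0 of 41 genes were higher beyond 1.5-fold, where 0.86% of all genes were. Set against Car4 in the same library, there were 2.51 reads of Plvap per read of Car4 in KO isoproterenol (2.13 to 2.98) and 1.18 in WT isoproterenol ventricles (0.995 to 1.40), against 0.595 in KO saline (0.509 to 0.694) and 0.595 in WT saline ventricles (0.516 to 0.686). The saline libraries gave the same ratio, and both isoproterenol libraries a ratio further towards Plvap, with no overlap of intervals.

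**Figure D3:**
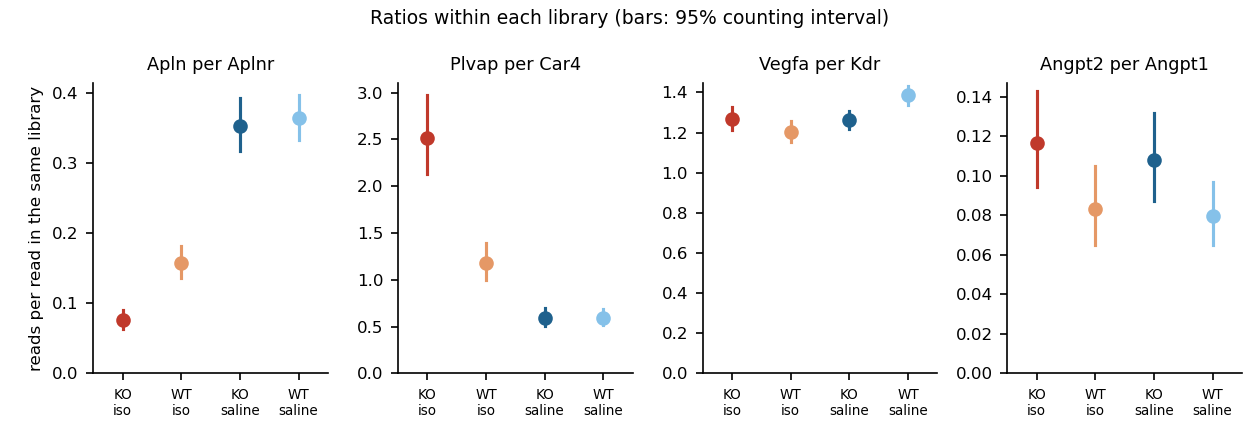
Reads of 1 gene per read of another in the same library (y axis, from 0) for Apln per Aplnr, Plvap per Car4, Vegfa per Kdr and Angpt2 per Angpt1, in the KO isoproterenol, WT isoproterenol, KO saline and WT saline libraries (x axis). Points are single libraries with 95% counting intervals. Apln per Aplnr is 0.0754 in KO isoproterenol ventricles and 0.364 in WT saline ventricles, and Plvap per Car4 is 2.51 in KO isoproterenol ventricles and 0.595 in both saline libraries.

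Among the remaining surface and junction genes, Cldn5, the main claudin of endothelial tight junctions, had the lowest ratios. It stood at 12.5 CPM in KO isoproterenol and 9.65 CPM in WT isoproterenol ventricles, against 15.3 CPM in KO saline and 14.3 CPM in WT saline ventricles. It was 1.39-fold lower with isoproterenol in KO ventricles (1.18 to 1.65) and 1.4-fold lower in WT ventricles (1.18 to 1.68). Genotypes thus gave like ratios, and both isoproterenol levels were below both saline levels. The counting intervals of these levels were not all apart. Those of saline began at 13.7 CPM in KO and 12.9 CPM in WT ventricles. The KO isoproterenol interval reached 14.2 CPM and overlapped both, whereas the WT isoproterenol interval ended at 11.1 CPM. Eng, endoglin, a coreceptor for BMP9 and TGF-beta, was 1.22-fold lower in KO ventricles (1.16 to 1.27) and 1.21-fold lower in WT ventricles (1.16 to 1.26). Cdh5, VE-cadherin of the adherens junction, was 1.19-fold lower in KO ventricles (1.15 to 1.24), and its WT interval spanned no change (0.969 to 1.04). Pecam1, the adhesion molecule CD31, was 1.11-fold higher in KO ventricles (1.06 to 1.16), and Vwf, the clotting factor stored in endothelial granules, 1.23-fold higher in WT ventricles (1.16 to 1.3). Robo4, a guidance receptor that stabilises endothelium, was 1.1-fold lower in both KO ventricles (1.005 to 1.21) and WT ventricles (1.01 to 1.2). Esam, an adhesion molecule of tight junctions, Emcn, a sialomucin of capillaries and veins, and Egfl7 had ratios under 1.1-fold in both genotypes. Esm1, a proteoglycan of tip cells, had wide intervals that spanned no change, at 2.02 CPM in KO isoproterenol and 1.79 CPM in WT isoproterenol ventricles, against 1.92 CPM in KO saline and 1.29 CPM in WT saline ventricles.

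The transcription factors split. Sox7, a SoxF factor of arterial and venous fate, stood at 20.1 CPM in KO isoproterenol and 24.4 CPM in WT isoproterenol ventricles, against 24.7 CPM in KO saline and 30.3 CPM in WT saline ventricles. It was 1.39-fold lower with isoproterenol in KO ventricles (1.22 to 1.59) and 1.17-fold lower in WT ventricles (1.05 to 1.32). Its relative Sox17 was 1.31-fold higher in WT ventricles (1.11 to 1.54) and within counting error in KO ventricles, and Sox18 was flat in both. Tal1, a factor of blood and endothelial precursors with few reads here, was 1.44-fold lower in KO ventricles (1.13 to 1.85), and Erg, the ETS factor that maintains endothelial identity, spanned no change in both genotypes. No common direction held across the 5 factors.

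Among the angiopoietins and their receptors, ratios were small. Tek, the Tie2 receptor gene, was 1.13-fold lower with isoproterenol in KO ventricles (1.05 to 1.22) and 1.08-fold lower in WT ventricles (1.01 to 1.16). Tie1, its orphan partner receptor, was 1.11-fold lower in KO ventricles (1.06 to 1.17). Angpt1, the agonist ligand, was 1.13-fold lower in WT ventricles (1.03 to 1.23), and Angpt2, the context-dependent antagonist, lay between 3.72 and 5.49 CPM with intervals that spanned no change. Reads of Angpt2 per read of Angpt1 were 0.117 in KO isoproterenol and 0.083 in WT isoproterenol ventricles, against 0.108 in KO saline and 0.0798 in WT saline ventricles. The KO libraries had the higher values, yet the intervals of all 4 libraries overlap.

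In the Notch and ephrin group, 6 of 6 WT ratios and 5 of 6 KO ratios were below 1, none beyond 1.5-fold. The largest belonged to Hey1, a Notch target repressor, 1.34-fold lower with isoproterenol in KO ventricles (1.1 to 1.64), and to Dll4, the tip cell ligand, 1.25-fold lower in KO ventricles (1.11 to 1.42). Notch1, the receptor of Dll4, was 1.17-fold lower in KO ventricles (1.06 to 1.3), and Notch4, an endothelial Notch receptor, was 1.11-fold higher in KO ventricles (1.01 to 1.21). Efnb2, the arterial ephrin, was 1.15-fold lower in WT ventricles (1.02 to 1.29), and Ephb4, its venous receptor, 1.14-fold lower (1.07 to 1.22). With libraries scaled by their totals, 3 of the 6 KO ratios were above 1, so the direction of this group in KO ventricles depends on the scaling.

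Over all 41 genes, ratios of isoproterenol to saline were below 1 for 28 in KO ventricles (median log2 ratio -0.15) and for 29 in WT ventricles (median -0.10), while the medians of all genes were near 0. In KO ventricles, intervals were beyond no change for 4 higher and 20 lower genes, beside 27.2% and 27.6% of all genes. For WT ventricles the counts were 5 higher and 14 lower, beside 15.3% and 16.1% of all genes. The KO and WT pairs share no library, and 10 of the 41 genes (24.4%) were lower beyond no change in both, as were 11% of all genes. These 10 were Apln, Car4, Vegfa, Kdr, Cldn5, Eng, Sox7, Flt1, Robo4 and Tek. Plvap was higher in both, 2.44% of the set beside 8.59% of all genes. The set's lean in KO ventricles hangs on the scaling: with libraries scaled by their totals, the all-gene median stood at 0.18 in KO ventricles and at -0.08 in WT ventricles. Then 17 of the 41 KO ratios and 33 of the 41 WT ratios were below 1, and 11 genes crossed to the other side of 1 in KO ventricles, Robo4 and Tek among them. Apln, Car4, Vegfa, Kdr, Cldn5, Eng, Sox7 and Flt1 stayed below 1 in both genotypes, and Plvap above 1, under total scaling and also when libraries were scaled to the 6 endothelial markers.

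RefSeq promoter windows, 250 bases before to 50 after the transcript start on GRCm38.p6, are shown for the 5 genes with the lowest isoproterenol ratios, averaged over genotypes, among the 10 that were lower in both. They were picked after their values were seen, so that the start regions of genes that were low together can be read side by side. RefSeq windows matched 28 of the 41 genes by symbol, with 35 windows in all. Capitals mark matches to 3 short motifs searched on both strands: ACGTG, the core of the hypoxia response element (CACGT on the other strand), CCGGAA, an ETS site (TTCCGG), and TGACG, the core of the cAMP response element (CGTCA).
Apln (chrX:48034804-48035103, minus strand): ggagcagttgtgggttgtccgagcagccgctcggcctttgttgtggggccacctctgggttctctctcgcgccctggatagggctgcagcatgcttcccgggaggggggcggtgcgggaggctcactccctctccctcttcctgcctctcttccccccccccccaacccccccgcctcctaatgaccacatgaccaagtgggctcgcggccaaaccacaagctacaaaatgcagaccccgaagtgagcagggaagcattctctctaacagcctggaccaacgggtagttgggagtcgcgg
Car4 (chr11:84957504-84957803, plus strand): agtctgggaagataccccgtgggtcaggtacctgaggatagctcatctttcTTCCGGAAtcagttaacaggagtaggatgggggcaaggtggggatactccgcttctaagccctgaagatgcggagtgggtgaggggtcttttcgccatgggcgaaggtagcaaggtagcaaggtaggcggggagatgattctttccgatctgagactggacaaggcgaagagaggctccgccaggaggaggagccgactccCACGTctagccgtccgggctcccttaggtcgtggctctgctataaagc
Vegfa (chr17:46032328-46032627, minus strand): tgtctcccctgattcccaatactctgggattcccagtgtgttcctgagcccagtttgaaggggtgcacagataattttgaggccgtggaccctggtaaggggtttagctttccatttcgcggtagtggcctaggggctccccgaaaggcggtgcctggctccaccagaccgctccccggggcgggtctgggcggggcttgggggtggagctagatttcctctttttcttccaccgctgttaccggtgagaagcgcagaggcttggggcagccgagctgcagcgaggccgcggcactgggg
Cldn5 (chr16:18776597-18776896, plus strand): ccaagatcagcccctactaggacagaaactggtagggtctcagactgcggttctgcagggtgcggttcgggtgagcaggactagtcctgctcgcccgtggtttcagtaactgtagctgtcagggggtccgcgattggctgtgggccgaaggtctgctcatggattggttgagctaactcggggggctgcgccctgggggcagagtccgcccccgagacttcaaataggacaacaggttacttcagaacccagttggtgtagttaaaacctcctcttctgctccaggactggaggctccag
Kdr (chr5:75978406-75978705, minus strand): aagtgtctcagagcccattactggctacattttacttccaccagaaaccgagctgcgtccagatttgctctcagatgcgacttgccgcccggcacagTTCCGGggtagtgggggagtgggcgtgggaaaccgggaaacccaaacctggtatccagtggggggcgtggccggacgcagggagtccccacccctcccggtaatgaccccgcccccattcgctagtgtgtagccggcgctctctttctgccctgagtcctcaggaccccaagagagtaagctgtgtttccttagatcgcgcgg
The Car4 window holds a pair of overlapping ETS matches and 1 hypoxia core, and the Kdr window holds 1 ETS match that begins at position -153 from the start. The Apln, Vegfa and Cldn5 windows shown hold none of the 3. A second Vegfa window, not printed, belongs to a transcript start inside the gene (17, 46025114 to 46025413). That internal window holds a hypoxia core that overlaps a core of the cAMP response element, and it is among the windows counted next. Hypoxia cores were in 2 of the 35 windows (5.71%), beside 19.6% of all 32851 promoter windows. ETS matches were in 2 of 35 (5.71%), beside 14.9%, and cores of the cAMP response element in 7 of 35 (20%), beside 20.8%. A match is a run of letters and not a site shown to be bound, and its absence says only that these letters are not in the window.

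KO and WT ventricles were next compared under each treatment. After saline, 0 of the 41 genes were beyond 1.5-fold in either direction, where 0.273% of all genes were higher and 0.217% lower in KO. The lower ones by their interval included Apln, 1.27-fold lower in KO saline than in WT saline ventricles (1.13 to 1.44), Aplnr, 1.24-fold lower (1.15 to 1.33), Angpt1, 1.21-fold lower (1.12 to 1.32), and Sox7, 1.19-fold lower (1.06 to 1.32). Vegfc was 1.25-fold higher (1.02 to 1.54), Vwf 1.14-fold higher (1.08 to 1.21) and Kdr 1.11-fold higher (1.07 to 1.15). In all, 5 genes were higher and 9 lower beyond no change, beside 11.2% and 10.2% of all genes. Ratios were above 1 for 16 genes and below 1 for 25 with TMM, and for 11 and 30 with total scaling.

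After isoproterenol, again 0 of the 41 genes were beyond 1.5-fold, where 4.2% of all genes were higher and 1.8% lower in KO. Apln was 1.65-fold lower in KO isoproterenol than in WT isoproterenol ventricles (1.33 to 2.07), Rgcc 1.6-fold lower (1.38 to 1.86), Sox7 1.41-fold lower (1.23 to 1.61) and Vegfb 1.39-fold lower (1.32 to 1.46). Car4 was 1.37-fold lower (1.14 to 1.66), Tal1 1.35-fold lower (1.05 to 1.75) and Cdh5 1.25-fold lower (1.2 to 1.3). On the other side stood Plvap, 1.55-fold higher (1.34 to 1.79), and Aplnr, 1.26-fold higher (1.17 to 1.35). These 9 genes kept their direction with total scaling, whereas 19 of the 41, among them Vegfa and Kdr, crossed to the other side of 1. Beyond no change, 2 genes were higher and 16 lower, beside 22.8% and 22.2% of all genes. Under total scaling the all-gene median stood at 0.22, and 31 of 41 ratios were above 1 and 10 below, against 12 above and 29 below with TMM. In the same comparison 7 of 10 macrophage markers and 6 of 11 fibroblast markers were higher beyond 1.5-fold in KO, 5 of 10 cardiomyocyte markers were lower, and 0 of the 6 endothelial markers were beyond it.

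**Figure D4:**
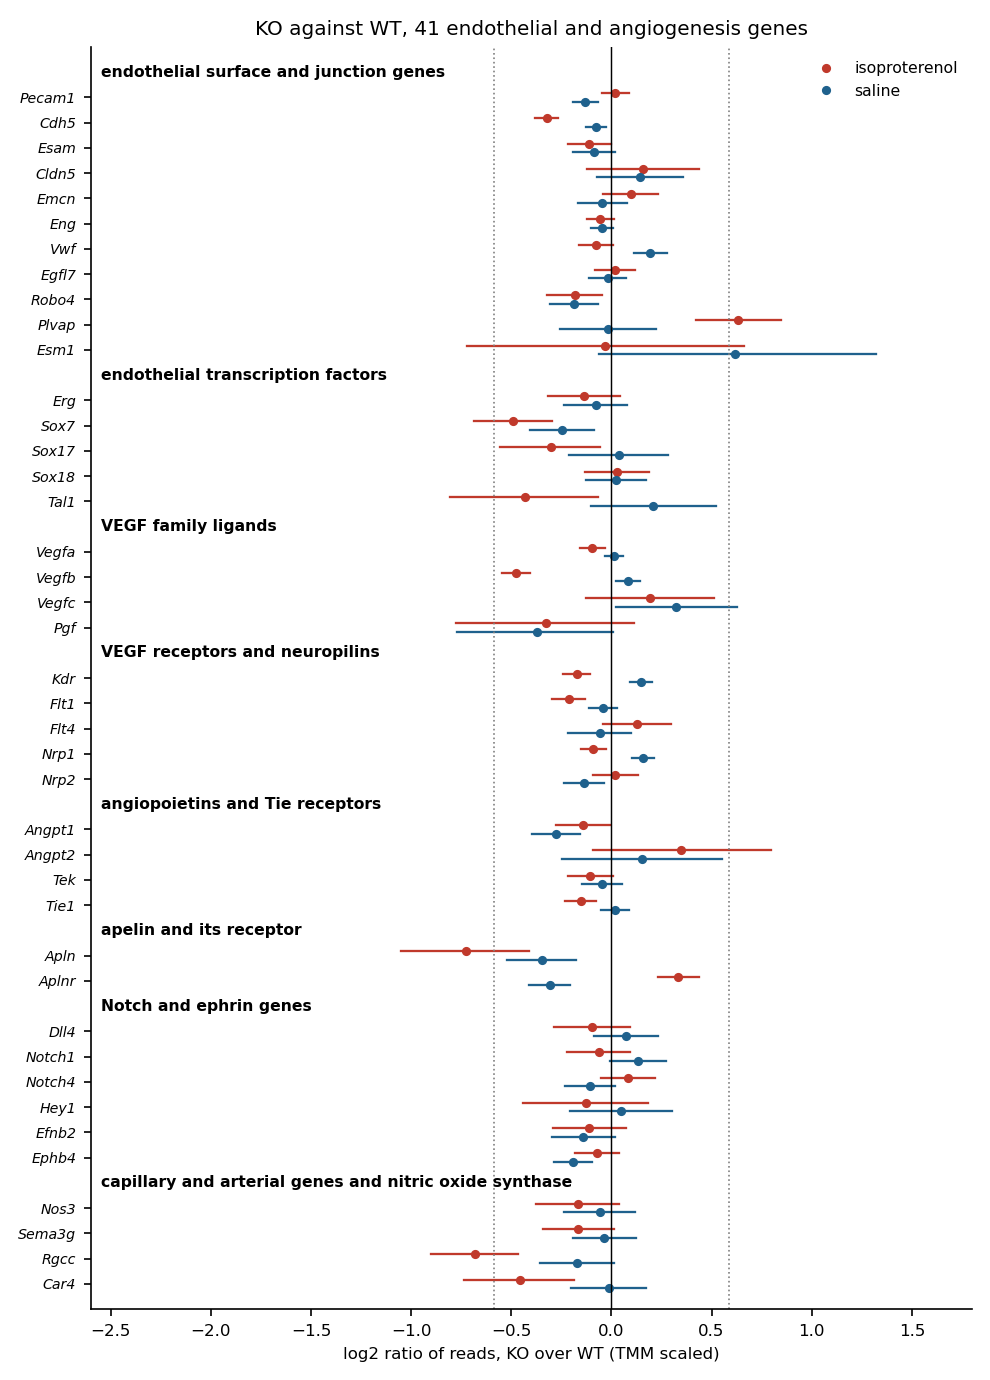
Log2 ratio of reads between KO and WT (x axis, TMM scaled) for each of the 41 genes, grouped by role, after isoproterenol (dark red) and after saline (blue). Points are ratios of 1 library over 1 library, bars are 95% counting intervals and dotted lines mark 1.5-fold. No interval lies wholly beyond 1.5-fold, Apln is left of no change under both treatments, and Plvap is right of it after isoproterenol and at no change after saline.

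The isoproterenol ratios themselves were set against each other between genotypes, as the log2 ratio in KO minus the log2 ratio in WT. None of the 41 differed beyond 1.5-fold, where 3.83% of all genes did upwards and 1.73% downwards. Beyond no change, 5 genes differed upwards and 12 downwards, beside 18.9% and 20.4% of all genes. Upwards were Plvap with a difference of 0.65 (0.34 to 0.96) and Aplnr with 0.64 (0.50 to 0.78), followed by smaller values for Notch4, Nrp2 and Pecam1. Downwards were Tal1 with -0.64 (-1.11 to -0.17), Vegfb with -0.56 (-0.65 to -0.46), Rgcc with -0.51 (-0.79 to -0.23), Car4 with -0.44 (-0.77 to -0.12), Apln with -0.38 (-0.73 to -0.02) and Kdr with -0.32 (-0.41 to -0.23). Smaller downward values followed for Vwf, Cdh5, Nrp1, Tie1, Flt1 and Vegfa. The 8 genes given with values kept their sign with total scaling. In that setting 16 of the 41 changed sign, among them Cdh5, Nrp1, Tie1, Flt1 and Vegfa. With TMM 16 differences were above 0 and 25 below, against 32 above and 9 below with total scaling. With 1 library per group no test of this difference exists, so it describes these 4 libraries.

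The additive fit is the only test that the design allows, since each treatment is seen in both genotypes. What it takes as error is the difference between the isoproterenol responses of KO and WT, with variance shared across genes. Its p-values therefore do not measure variation between hearts of a group. The fit was run with limma on log2(CPM + 1) over all 14301 genes, with 1 residual degree of freedom and Benjamini-Hochberg adjustment at 0.05. Differences on that scale understate those of low genes. Of the 41 genes, 1 fell with isoproterenol, beside 0.881% of all genes, and 0 rose, beside 1.69%. The gene was Apln, with a log2 difference of -1.34 (SE 0.224), lower with isoproterenol in both genotypes, and a limma adjusted p of 0.00163. On recovered reads, its adjusted p was 0.0359 with the edgeR quasi-likelihood test and 0.000313 with DESeq2. The call was lost in limma on TMM-scaled CPM, with an adjusted p of 0.139 and a log2 difference of -1.38, a setting in which 1 gene of the whole table was called. Over all alternatives run it lay between 1.43e-06 and 0.139. Car4 came next, with a log2 difference of -0.76 (SE 0.222) and a limma adjusted p of 0.0811, followed by Vegfa at -0.47 (limma adjusted p 0.157), Plvap at 0.68 (0.169) and Kdr at -0.37 (0.307). At an unadjusted p under 0.05, limma had 1 gene higher and 4 lower with isoproterenol, beside 8.15% and 4.89% of all genes. For genotype, limma called 0 of the 41 genes, beside 0.042% of all genes higher and 0.0559% lower in KO, and edgeR and DESeq2 also called 0. At an unadjusted p under 0.05 the genotype counts were 0 by limma, beside 3.17% of all genes higher and 0.923% lower in KO, and 0 by DESeq2, beside 0.734% and 0.587%. By edgeR 3 were lower in KO, beside 1.58% of all genes, and 0 higher, beside 2.05%. By limma on TMM-scaled CPM 2 were lower, beside 1.38%, and 0 higher, beside 1.5%.

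A wider circle of 113 endothelial and angiogenesis genes outside the 41, of which 110 had enough reads, gave the setting. In KO ventricles 16 were higher and 13 lower with isoproterenol beyond 1.5-fold, beside 7.09% and 4.22% of all genes. With total scaling 22 were higher and 3 lower, but the share of all genes was not counted in that setting. In WT ventricles 0 were higher and 2 lower, beside 0.86% and 0.797%. Those 2 were Klf2, a shear-responsive factor of quiescent endothelium, and Apold1, an early response gene of endothelium. Klf2 stood at 27.6 CPM in KO isoproterenol and 21.4 CPM in WT isoproterenol ventricles, against 41.9 CPM in KO saline and 46.7 CPM in WT saline ventricles. It was 1.72-fold lower in KO ventricles (1.55 to 1.92) and 2.06-fold lower in WT ventricles (1.85 to 2.31). Apold1 was 1.48-fold lower in KO ventricles (1.23 to 1.79) and 2.48-fold lower in WT ventricles (2.03 to 3.06).

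Of 10 genes of capillaries and lipid uptake in KO ventricles, 6 were lower beyond 1.5-fold and 0 higher (median log2 ratio -0.73), beside 4.22% and 7.09% of all genes. In WT ventricles 0 of 10 were beyond it (median -0.15), beside 0.797% of all genes lower and 0.86% higher. Lpl, the lipase that frees fatty acids at the capillary wall and is made by muscle cells, stood at 2852 CPM in KO isoproterenol and 3419 CPM in WT isoproterenol ventricles, against 5467 CPM in KO saline and 5316 CPM in WT saline ventricles. Aqp7, a channel for glycerol, was 2.0-fold lower with isoproterenol in KO ventricles (1.76 to 2.3) and Aqp1, the water channel of capillaries, 1.8-fold lower (1.73 to 1.87). Cd36, a fatty acid carrier of capillaries and muscle, was 1.65-fold lower (1.63 to 1.68). With total scaling, for which the share of all genes was not counted, 3 of the 10 remained beyond 1.5-fold. In these KO libraries 5 of 10 cardiomyocyte markers were also lower with isoproterenol beyond 1.5-fold (median log2 ratio -0.59), and the part of that in the capillary list was not tested.

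Lists of arterial genes, and of modulators of vessel growth that other cells also make, held genes beyond 1.5-fold in both directions in KO ventricles. Their counts stand beside 7.09% of all genes higher and 4.22% lower in KO ventricles, and 0.86% and 0.797% in WT ventricles. Of 10 arterial genes, 3 were higher and 1 lower in KO ventricles, and 0 in WT ventricles. Mgp, matrix Gla protein, was 3.06-fold higher with isoproterenol in KO ventricles (2.93 to 3.19), Gja5, the arterial connexin, 2.19-fold higher (1.78 to 2.72) and Fbln5, an elastic fibre protein, 1.87-fold higher (1.69 to 2.07). Cxcl12, a chemokine of arterial and stromal cells, was 1.65-fold lower (1.58 to 1.73). Of 28 other angiogenic ligands, receptors and inhibitors, 7 were higher and 1 lower in KO ventricles, and 0 in WT ventricles. Thbs1, thrombospondin-1, an inhibitor of vessel growth, stood at 102 CPM in KO isoproterenol and 23.1 CPM in WT isoproterenol ventricles, against 20.4 CPM in KO saline and 22.5 CPM in WT saline ventricles. Only the KO isoproterenol library was high, 4.42-fold above KO saline (4.0 to 4.91). Ctgf, a matricellular factor, was 3.89-fold higher (3.63 to 4.17), Serpinf1, the inhibitor PEDF, 3.55-fold higher (3.27 to 3.85) and Col18a1, the collagen that yields endostatin, 2.43-fold higher (2.19 to 2.7). The lower one was Epas1, the hypoxia-inducible factor HIF-2 alpha of endothelium, named after its values were seen, at 1.7-fold lower (1.65 to 1.76). In KO ventricles 8 of 11 fibroblast markers and 7 of 10 macrophage markers were higher beyond 1.5-fold as well (median log2 ratio 1.85 for fibroblast and 1.14 for macrophage markers), and their part in these lists was not tested.

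**Figure D5:**
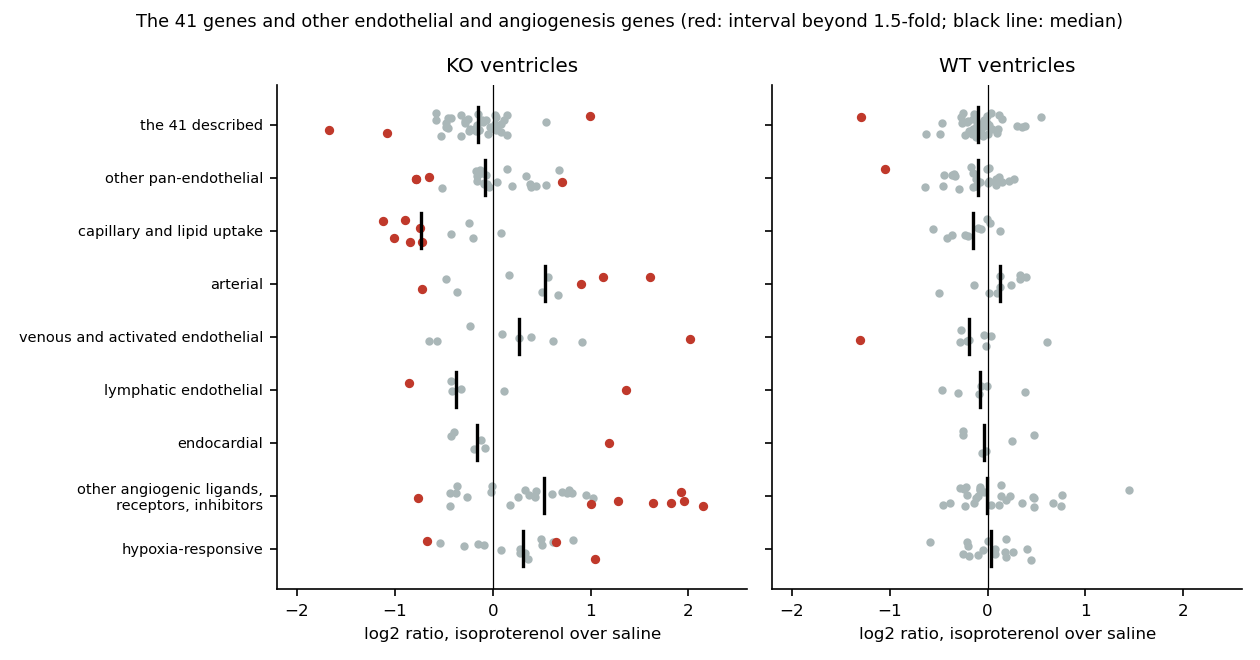
Log2 ratio of isoproterenol over saline (x axis) for the 41 genes described and for 8 further gene lists (rows), in KO ventricles (left) and WT ventricles (right). Each point is 1 gene, red points have intervals beyond 1.5-fold and black lines are list medians. The capillary and lipid uptake list has a median of -0.73 in KO ventricles and -0.15 in WT ventricles, while the 41 genes have a median of -0.15 in KO ventricles and -0.10 in WT ventricles.

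Between KO and WT after isoproterenol, 10 of the 110 wider genes were higher and 1 lower in KO beyond 1.5-fold, beside 4.2% and 1.8% of all genes, and after saline 0 were. Thbs1 was 3.82-fold higher in KO isoproterenol than in WT isoproterenol ventricles (3.46 to 4.23), Ctgf 3.54-fold higher (3.31 to 3.8), Vcan, a proteoglycan of activated matrix, 2.42-fold higher (2.21 to 2.64), and Mgp 2.25-fold higher (2.17 to 2.34). Selp, P-selectin of activated endothelium and platelets, was 3.39-fold higher with a wide interval (1.81 to 7.26) at 2.34 CPM in KO isoproterenol and 0.579 CPM in WT isoproterenol ventricles. Epas1 was 1.6-fold lower (1.55 to 1.66). None of the 41 genes reached the rule in this comparison.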

How the data were processed

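Levels of 46603 mouse genes were deposited as CPM in 1 table with 4 columns, 1 library per group. Ventricle RNA was made into stranded poly(A) libraries per the labels' protocols, and HTSeq and the build GRCm38.p4 (mm10) are named per the submitters' processing notes. How reads were aligned, with which annotation and with which strand setting is not given in the sources used here. Of the 41 genes, 9 share exon bases with another annotated gene, but Apln, Aplnr, Car4, Plvap, Vegfa, Vegfb, Kdr and Cldn5 do not. Columns headed with a genotype alone were taken as saline. For 46091 genes, positions and exon lengths were looked up in GENCODE M21 (GRCm38) through the Ensembl ID.

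All deposited CPM values (100%) are whole multiples of 1 read within 0.01 reads, and reads were recovered from them. Ratios were scaled by TMM (factors 1.10 for KO isoproterenol, 0.946 for WT isoproterenol, 0.966 for KO saline and 0.999 for WT saline, edgeR 4.0.16), 0.5 was added to counts, and each ratio has an exact conditional (Clopper-Pearson) 95% interval (scipy 1.17.1). Reads carry no molecular identifiers, so intervals cover counting error only, and the interval of a difference of log2 ratios came from the 4 counts. The 14301 genes averaging 10 reads or more were tested, and a gene counts as beyond 1.5-fold only when no part of its interval is nearer to no change. Comparisons that share a library are not independent. The additive fit of genotype and treatment used limma 3.58.1 (log2(CPM + 1), trended variance), as planned for normalized values. On recovered reads, the quasi-likelihood test of edgeR called 15 genes higher and 7 lower by treatment, and 2 and 1 by genotype, and DESeq2 1.42.0 was also run. Scripts were tested on simulated data.

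All 41 genes are named, those beyond 1.5-fold with each library's level. Of the wider lists, at most 4 genes past 1.5-fold per list and comparison are named, ranked by how far the inner bound of the interval is from no change. Epas1 was named outside this rule, after its values were seen. The members and lists were chosen with earlier results of these data known. Promoter sequences are from RefSeq (GRCm38.p6). Other scalings, filters, added counts, fold rules and tests were run as alternatives.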

Additional observations from a re-analysis of the deposited data

Results flagged for a closer look

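Vegfb moved in opposite directions in the genotypes, with counting intervals on opposite sides of no change, as 1 of the 41 genes (2.44%) and 3.75% of all genes did. It was 1.37-fold lower with isoproterenol in KO ventricles (1.31 to 1.44) and 1.07-fold higher in WT ventricles (1.02 to 1.12), a difference of -0.555 in the log2 ratios, KO minus WT. The difference was not tested, since each group has 1 library. With libraries scaled by their totals the KO log2 ratio of Vegfb was -0.28 and the WT one 0.02, a difference of -0.29.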

How the results depend on the processing

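With 1 library per group no library could be left out of a comparison of 2, and no replicate number was given. No paired analysis was possible because each group holds 1 library. In the comparisons where they were beyond 1.5-fold, Apln, Car4 and Plvap kept their side of no change under every alternative that was run. Genes with smaller ratios changed side, 11 in KO ventricles and 19 for KO against WT after isoproterenol with total scaling. Car4, whose interval spanned no change for KO against WT after saline, changed side there with scaling to the 6 endothelial markers. Single log2 ratios of the 41 genes moved by more than their counting interval in 11 combinations of gene and setting for isoproterenol in WT ventricles, 72 in KO ventricles, 1 for KO against WT after saline, 62 after isoproterenol and 53 for the difference, and by less or not at all in 358, 297, 368, 307 and 316 in the same order. Alternatives that change only the read filter or the fold rule cannot move a ratio. They are counted in this second group, so its size does not measure how stable the ratios are. Requiring only an interval beyond no change gave 5 higher and 14 lower for isoproterenol in WT ventricles, 4 and 20 in KO ventricles, 5 and 9 for KO against WT after saline, 2 and 16 after isoproterenol, and 5 and 12 for the difference of responses. Requiring 2-fold left 0 higher and 1 lower in KO ventricles. Scaling by library totals gave 2 higher in KO ventricles, Plvap and Aplnr, 1 higher for KO against WT after isoproterenol, Plvap, and 2 higher for the difference. Totals without mitochondrial transcripts gave 1 higher for the difference. Scaling to the 6 endothelial markers, chosen after seeing the data, gave 2 higher in KO ventricles, 1 for KO against WT after isoproterenol and 1 for the difference. The share of all genes was not counted under the 2-fold rule or these other scalings. The counts of the 41 in those settings therefore cannot be read against genes at large.

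For the treatment term, limma called 242 genes higher and 126 lower. On TMM-scaled CPM it called 0 and 1 with 0 of the 41 lower, with no minimum on reads 636 and 329 with 2 of the 41 lower (Apln and Car4, adjusted p 1.43e-06 and 0.0293), by edgeR 15 and 7, and by DESeq2 104 and 70. The adjusted p of Apln ran between 1.43e-06 and 0.139, and that of Car4 between 0.0293 and 0.236. For genotype, limma called 6 and 8 genes, 14 higher with a pseudocount of 0.25 CPM, 0 and 0 on TMM-scaled CPM, 162 and 33 with no minimum, and 2 and 1 by edgeR. The cause was not tested. Esm1, Pgf, Angpt2, Tal1 and Vegfc rest on few reads, and their intervals allow ratios that the data cannot place.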

Other observations

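Genes that respond to low oxygen were read beside Vegfa, itself a known target of that response. Of 16 hypoxia-responsive genes, 2 were higher and 1 lower with isoproterenol beyond 1.5-fold in KO ventricles (median log2 ratio 0.31), beside 7.09% and 4.22% of all genes, and 0 in WT ventricles (median 0.04). Hmox1, haem oxygenase-1, stood at 20.7 CPM in KO isoproterenol and 9.75 CPM in WT isoproterenol ventricles, against 8.8 CPM in KO saline and 7.57 CPM in WT saline ventricles, and was 2.07-fold higher in KO ventricles (1.74 to 2.47). Pgk1, a glycolytic kinase, was 1.56-fold higher (1.5 to 1.63), while Egln1, a prolyl hydroxylase that marks HIF for breakdown, was 1.59-fold lower (1.54 to 1.64). P4ha1, a collagen prolyl hydroxylase, was 1.8-fold higher in KO isoproterenol than in WT isoproterenol ventricles (1.65 to 1.97).

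Lists for other vessel beds were small, and their counts stand beside 7.09% of all genes higher and 4.22% lower beyond 1.5-fold in KO ventricles. Of 6 lymphatic genes with enough reads, Flt4 included, 1 was higher and 1 lower with isoproterenol in KO ventricles. Pdpn, podoplanin, which fibroblasts also make, was 2.57-fold higher (1.75 to 3.92) and Prox1, the lymphatic fate factor that heart muscle also expresses, 1.81-fold lower (1.67 to 1.96). Of 6 endocardial genes, 1 was higher, Cdh11, an adhesion molecule that fibroblasts also express, at 2.28-fold (1.89 to 2.77). Of 9 venous and activated endothelial genes, 1 was higher in KO ventricles, Vcan, at 4.04-fold (3.65 to 4.48). Of 26 other pan-endothelial genes, 1 was higher in KO ventricles, Cd34, a marker of endothelium and stroma, at 1.63-fold (1.56 to 1.71), and 3 were lower, Klf2, Tfpi, an inhibitor of clotting, at 1.72-fold (1.58 to 1.87), and Adgrf5, an adhesion receptor, at 1.57-fold (1.51 to 1.64). Unc5b, a netrin receptor of arteries and tip cells, was 1.6-fold higher with isoproterenol in KO ventricles (1.47 to 1.74) and 1.11-fold lower in WT ventricles (1.01 to 1.21), a difference beyond 1.5-fold that none of the 41 genes showed.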
